A study of Homo sapiens with 4 samples.

Results

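The ERK pathway output genes examined here are 10 transcripts that cells raise when the kinase ERK is active. They were taken by name from the deposited gene table, and comprise the phosphatases DUSP4, DUSP5 and DUSP6, the pathway inhibitors SPRY2, SPRY4, SPRED1 and SPRED2, and the transcription factors ETV4, ETV5 and FOSL1. All 10 were found among the 18134 genes of the table, each under the NCBI gene number that RefSeq gives to its symbol, and all 10 had enough reads to be tested. The libraries came from PC9, an established lung adenocarcinoma cell line that carries an activating deletion in EGFR. One group was transduced with a lentivirus for a short hairpin RNA against TPX2 (shTPX2), a spindle assembly factor, and the other with a control hairpin (shNC). Both groups were selected with antibiotic to obtain stable lines, so both carried an integrated hairpin vector. Each group had 2 poly(A)-selected libraries, numbered 1 and 2, and the labels placed the 4 libraries in a single batch. No source says that the libraries of a group were separate cultures or infections, so the p-values measure the spread between these libraries, which may be technical.

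ERK is the last kinase of the cascade that runs from receptors such as EGFR through RAS, RAF and MEK. Active ERK switches on genes that encode its own brakes, namely dual-specificity phosphatases that take the phosphates off ERK and Sprouty and SPRED proteins that act on RAS and RAF. It also raises transcription factors of the ETV family and the AP-1 component FOSL1, so the mRNA of such genes is widely read as a sign of ERK output in EGFR-mutant lung cancer cells. These measurements are of mRNA, and phosphorylated ERK was not measured in these libraries.

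Expected counts, the estimated reads of each gene before any scaling for depth, summed to 20906441 to 21972583 per library, and 14048 genes were tested. TPX2 itself had 55.01 TPM (transcript abundance scaled for transcript length and library size) in shNC 1 and 111.85 TPM in shNC 2, against 43.35 TPM and 43.77 TPM in shTPX2 1 and 2. The 2 control libraries differed 2.03-fold from each other. The fitted log2 fold change of TPX2, −0.81 with a standard error of 0.32, did not pass the adjustment over all genes tested (Benjamini-Hochberg adjusted p = 0.618 in the quasi-likelihood test of edgeR). No gene of the table passed it. In the same test the 95% interval was −1.57 to −0.049 and the unadjusted p was 0.040. The log2 fold change of TPX2 was −0.24 without shNC 2 and −1.21 without shNC 1, so the size of the knockdown in these libraries depends on which control is used. All 6 epithelial markers fixed for the label (EPCAM, CDH1, KRT7, KRT8, KRT18 and KRT19) were expressed, with summed levels of 20013 to 27561 TPM in shNC and 23986 to 25783 TPM in shTPX2. The lung lineage markers NKX2-1, NAPSA and SFTPB were at or near 0, together at 2.68 to 3.79 TPM in shNC and 1.34 to 2.3 TPM in shTPX2. The 5 fibroblast markers summed to 9.16 to 12.4 TPM in shNC and 5.9 to 8.26 TPM in shTPX2. Most of this was COL1A1, which ran from 5.72 to 11.99 TPM, while the other 4 were under 1 TPM in every library. Of these, LUM was at 0 TPM in every library and DCN at 0 TPM in both shTPX2 libraries. The immune list summed to 133 to 250 TPM in shNC and 184 to 199.6 TPM in shTPX2. Most of it was CD68, CD14 ran from 6.4 to 27.3 TPM, and PTPRC was under 1 TPM in every library. The endothelial list summed to 19.9 to 32.6 TPM and 31.1 to 36.5 TPM in the same order, with VWF at or under 0.17 TPM. Of that list CDH5 was higher in shTPX2 without overlap, at 14.37 and 18.09 TPM against 26.71 and 30.51 TPM, and PECAM1 ran from 4.2 to 14.37 TPM. The part of these markers in the results below was not tested.

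The levels of the 10 genes in single libraries ran from 8.14 TPM for SPRED1 to 140.9 TPM for DUSP4. By the mean of the 4 libraries the order was DUSP4, ETV4, DUSP6, DUSP5, FOSL1, ETV5, SPRED2, SPRY4, SPRY2 and SPRED1. From DUSP4 down to SPRED2 the ranges of each neighbouring pair overlapped, so the order of neighbours there is not separated from the spread between libraries. Some genes further apart in that order were separated. DUSP4, at 106.48 TPM or more, and ETV4, at 96.26 TPM or more, stood above DUSP5, at 87.72 TPM or less. Within each single library DUSP4 was above ETV4 and DUSP6 above DUSP5, while the other neighbouring pairs down to SPRED2 changed order. SPRED2, at 32.69 TPM or more, stood above SPRY4, at 26.14 TPM or less. SPRY4 stood in turn above SPRY2, and SPRY2 above SPRED1, in all 4 libraries. In this order the 3 phosphatases were among the first 4 genes and the 4 inhibitors came last, although SPRED2 was not separated from ETV5.

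**Figure D1:**
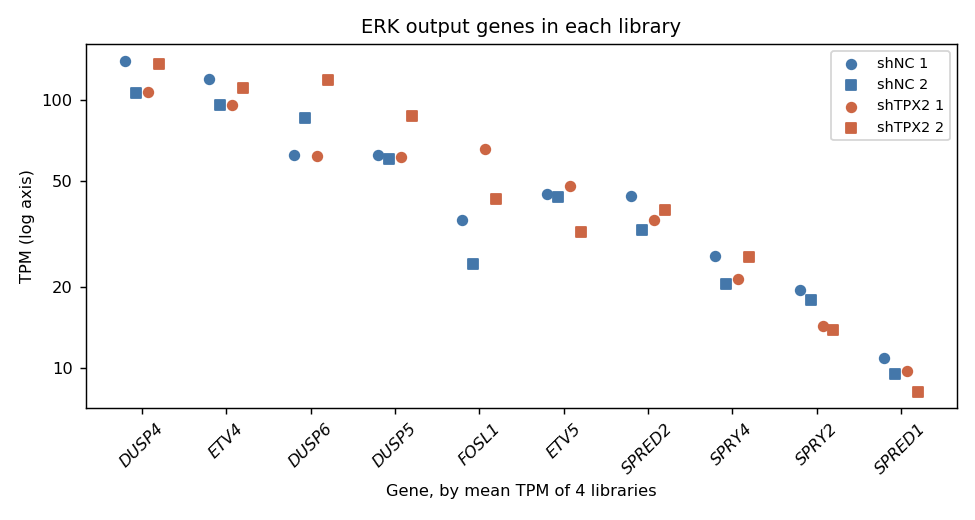
TPM (log axis) of the 10 ERK output genes, ordered by the mean of the 4 libraries, with shNC in blue, shTPX2 in orange, library 1 as circles and library 2 as squares. FOSL1 is the gene whose shTPX2 points, 65.81 and 42.72 TPM, both lie above its shNC points, and SPRY2 the gene whose shTPX2 points, 14.39 and 13.85 TPM, both lie below.

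Between the groups, FOSL1 had the largest difference of the 10 genes. It was 1.99-fold higher in shTPX2, a log2 fold change of 0.99, while those of the other 9 genes lay between −0.28 for SPRY2 and 0.41 for DUSP6. At an adjusted p under 0.05, edgeR called 0 of the 10 genes and 0 of all genes tested (0%). At an unadjusted p under 0.05 it gave 1 of the 10 as higher, FOSL1, against 3.13% of all genes, and 0 as lower against 4.9%. The study's methods give looser criteria for limma after voom, a p no larger than 0.1 and a log fold change of 0.3 or more. They were applied here with the unadjusted p, base 2 and both directions, which the methods do not state. By these criteria FOSL1 was again the 1 gene that was higher (6.24% of all genes) and 0 were lower (7.99% of all genes). TPX2, which is not among the 10, was lower by them, with a log2 fold change of −0.73 in that fit. DESeq2, which called 111 genes in the whole table at an adjusted p under 0.05, called 0 of the 10, and limma called 0 in the table. The median log2 fold change of the 10 genes was 0.08, beside −0.01 over all genes tested, with 7 fitted above 0 and 3 below. That median changed sign to −0.09 when shNC 2 was left out and to −0.02 on TPM values.

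**Figure D2:**
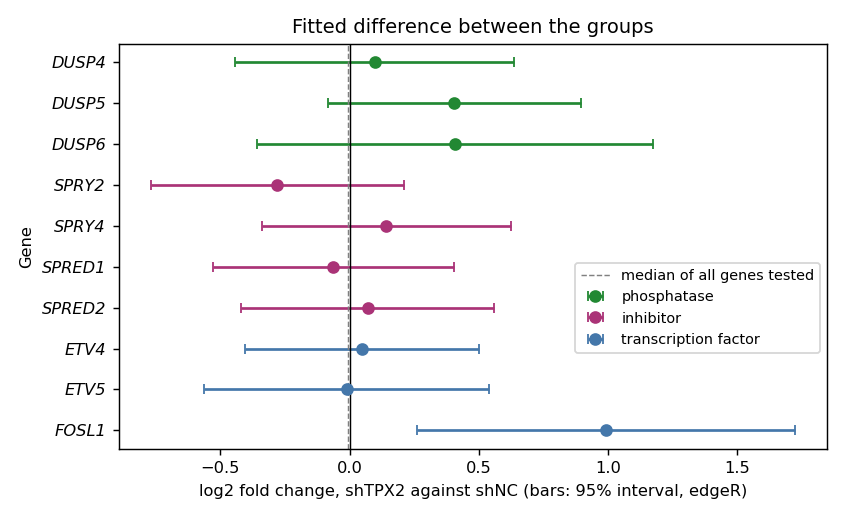
Log2 fold change of shTPX2 against shNC for the 10 genes, coloured by role, with bars for the 95% interval of edgeR's fit and a dashed line at the median of all genes tested, −0.01. The intervals of 9 genes span 0, and that of FOSL1 runs from 0.26 to 1.72.

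Among the transcription factors, FOSL1, which encodes the AP-1 subunit FRA-1, gave 35.61 TPM for shNC 1, 24.45 TPM for shNC 2, 65.81 TPM for shTPX2 1 and 42.72 TPM for shTPX2 2. Its gene lies at chr11:65892049-65900545 in GRCh38.p14. Both shTPX2 libraries were above both shNC libraries, but the lower shTPX2 library stood above the higher shNC library by less than the libraries of either group differed from each other. The means were 30.0 ± 7.89 TPM in shNC and 54.3 ± 16.3 TPM in shTPX2 (SD, n = 2 each). On the log2 scale the difference was 0.99 with a standard error of 0.30 and a 95% interval of 0.26 to 1.72, and its adjusted p in edgeR was 0.579. It kept its direction with each library left out, at 1.34 without shNC 1, 0.71 without shNC 2, 0.62 without shTPX2 1 and 1.29 without shTPX2 2. Without shTPX2 1 it no longer had an unadjusted p under 0.05.

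ETV4 and ETV5 encode ETS-family factors of the PEA3 group, which are classical transcripts of receptor and ERK signalling. In shNC ETV4 measured 120.66 and 96.26 TPM, and in shTPX2 96.46 and 111.68 TPM. Both shTPX2 values lay between the 2 shNC values, and the log2 fold change was 0.05 (standard error 0.19, 95% interval −0.40 to 0.50). In linear terms that interval leaves room for a level in shTPX2 between 0.756 and 1.41 times that in shNC. The shNC libraries gave 44.68 and 43.33 TPM for ETV5, and the shTPX2 libraries 47.66 and 32.25 TPM. Its shTPX2 libraries lay on either side of the shNC libraries, and the fitted difference was −0.01 on the log2 scale (95% interval −0.56 to 0.54, standard error 0.23). Without shTPX2 2 this value was 0.27, and without shTPX2 1 it was −0.34. ETV4 shares exon sequence with DHX8 on the opposite strand and ETV5 with DGKG on the same strand in GENCODE v29. The counting is not stated to have used strand, so reads in the shared part of ETV4 and DHX8 cannot be told apart.

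The 3 phosphatases were each fitted above 0, and none passed a test. DUSP6, a cytoplasmic phosphatase specific for ERK and a well known negative-feedback transcript of the pathway, gave 62.59 TPM for shNC 1, 85.56 TPM for shNC 2, 61.91 TPM for shTPX2 1 and 118.85 TPM for shTPX2 2. This gene lies at chr12:89347235-89352501. The 2 libraries with the knockdown hairpin were at once the lowest and the highest of the 4, which is a 1.92-fold difference inside 1 group. The fitted difference of 0.41 on the log2 scale (95% interval −0.36 to 1.17, standard error 0.32) was the least precise of the 10, with an adjusted p of 0.78 in edgeR. It was −0.10 without shTPX2 2 and 0.80 without shTPX2 1. DUSP6 overlaps the annotated antisense gene AC024909.2, to which the same limit on strand applies.

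DUSP5, a nuclear phosphatase that also binds ERK, had 3 libraries at nearly the same level, 62.26 and 60.38 TPM in shNC and 61.66 TPM in shTPX2 1, whereas shTPX2 2 was at 87.72 TPM. The higher mean TPM in shTPX2 therefore came from a single library. The fitted difference, from scaled counts and not from TPM, was 0.40 on the log2 scale (95% interval −0.09 to 0.89, standard error 0.20). Its adjusted p in edgeR was 0.682, and without shTPX2 2 the fitted difference was smaller but still above 0, at 0.16. DUSP4, a nuclear phosphatase of the same family, had 140.9 and 106.48 TPM in the shNC libraries, and in those of shTPX2 107.13 and 136.32 TPM. Both shTPX2 values lay within the range of shNC, and the log2 fold change was 0.10 (standard error 0.22, 95% interval −0.44 to 0.64). The mean TPM of DUSP4 was lower in shTPX2, 121.7 against 123.7 TPM, so the sign of this small difference depended on the scaling.

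The 4 inhibitors had log2 fold changes from −0.28 to 0.14, and 0 of them passed a test. SPRY2 (chr13:80335976-80341126), a Sprouty protein that restrains receptor signalling upstream of ERK, was the 1 gene of the 10 that was lower without overlap. Its libraries gave 19.56 and 17.9 TPM for shNC, and 14.39 and 13.85 TPM for shTPX2. The mean TPM was 0.754 times that of shNC, and the libraries of each group lay close together, at 18.7 ± 1.17 TPM and 14.1 ± 0.382 TPM (SD, n = 2 each). The fitted difference of −0.28 on the log2 scale (95% interval −0.77 to 0.21, standard error 0.20) had an adjusted p of 0.773 in edgeR, and it stayed between −0.37 and −0.19 with each library left out. Of all genes tested, 30.3% were lower in TPM without overlap and 10.7% were higher. Against that background, 1 of 10 genes lower (SPRY2) and 1 of 10 higher (FOSL1) is no excess. The shares hold for TPM, on which the median log2 fold change over all genes tested was −0.10 (limma). In edgeR's fit of scaled counts that median was −0.01, with 6863 genes above 0 and 7185 below.

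SPRY4, its paralog, gave 26.14 and 20.57 TPM for shNC, and 21.47 and 25.85 TPM for shTPX2, with both shTPX2 values inside the shNC range. Its log2 fold change was 0.14 (standard error 0.20, 95% interval −0.34 to 0.62). SPRED1, which brings neurofibromin to the membrane to switch off RAS, stood at 10.89 and 9.5 TPM for shNC, and at 9.74 and 8.14 TPM for shTPX2, with overlapping groups and a fitted difference of −0.06 on the log2 scale (standard error 0.19, 95% interval −0.53 to 0.40). SPRED2, of the same family, stood at 44.03 and 32.69 TPM for shNC, and at 35.74 and 38.78 TPM for shTPX2. Its shTPX2 values again lay between the shNC values, and its log2 fold change was 0.07 (standard error 0.20, 95% interval −0.42 to 0.56).

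RefSeq promoters, from 250 bases before to 50 after an annotated start, matched 5 of the 10 genes with 8 starts in GRCh38.p14 (DUSP6, SPRED1, SPRED2, SPRY2 and SPRY4). They were searched on both strands for letters bound by factors of this pathway, namely TGAATGAA and TGAATGGA for the repressor CIC, CCGGAAGT for ETS factors, TGANTCA for AP-1 and TGACGTCA for CRE-binding factors. Of all 35116 promoters 1.65%, 1.03%, 4.14%, 7.71% and 1.85% held these. The CIC, ETS and CRE letters occurred in 0 of the 8 promoters. TGANTCA occurred in 1 of them, at an inner start of SPRED2, as TGACTCA from position −6 and as TGAATCA from position 34, counted from 0 at the first transcribed base. No match says only that these letters are not in the window. The 61 bases up to and including the first transcribed base are shown for both SPRED2 starts because they differ in this respect, with the AP-1 letters in capitals. Both lie on the minus strand of chromosome 2, the outer at chr2:65432599-65432659 and the inner at chr2:65366778-65366838.
SPRED2 outer start: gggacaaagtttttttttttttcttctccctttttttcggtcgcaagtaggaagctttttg
SPRED2 inner start: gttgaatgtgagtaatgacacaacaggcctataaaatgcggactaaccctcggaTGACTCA
The gene table gives 1 value for SPRED2, so transcripts from the 2 starts were not separated.

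For 8 of the 10 genes, the libraries of at least 1 group differed from each other as much as or more than the groups did. The ratio of group mean TPM was larger in size than both within-group ratios for 2 of the 10 genes, FOSL1 and SPRY2, and for 28.1% of all genes tested. DUSP4, SPRY4, SPRED2 and ETV4 shared a pattern in which shNC 1 stood above shNC 2 and shTPX2 2 above shTPX2 1. How many of all genes tested had this pattern was not counted. The 10 genes had between 334 and 8348 expected counts in a library. Counting error alone would therefore give their log2 fold changes a standard error of 0.0168 to 0.0731, whereas the fitted standard errors were 0.19 to 0.32.

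**Figure D3:**
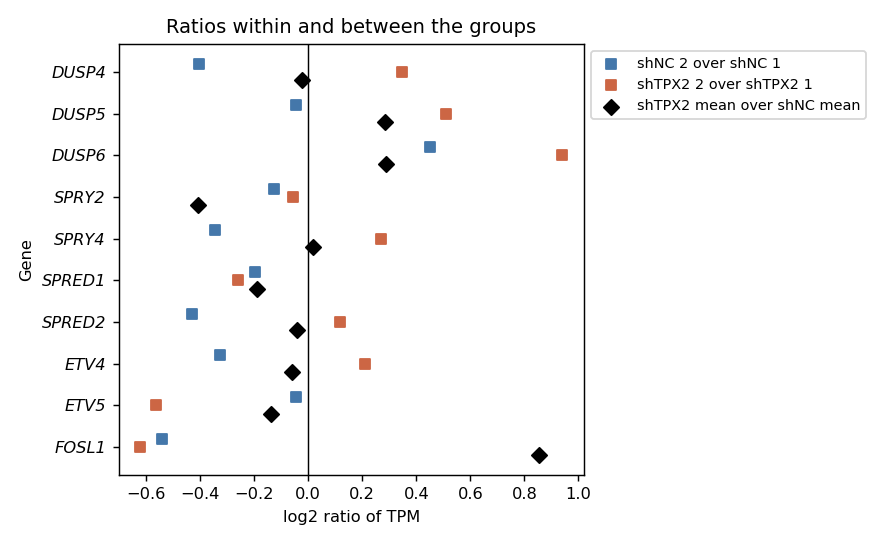
Log2 ratios of TPM for each gene, library 2 over library 1 within shNC (blue squares) and within shTPX2 (orange squares), and the shTPX2 mean over the shNC mean (black diamonds). The diamond lies farther from 0 than both squares for FOSL1 and SPRY2, while the shTPX2 square of DUSP6 reaches 0.94.

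FOSL1, SPRY2, SPRED1 and ETV5, 4 of the 10 genes, were higher in library 1 than in library 2 of both groups, and DUSP6 was lower in both. The order seen for DUSP6 held for 31.4% of all genes tested. Library 1 was above library 2 in both groups for 24.8% of all genes tested, but for 13 of 18 other ERK-induced genes (72.2%). These include the immediate-early gene EGR1, with 156.18 TPM for shNC 1, 30.55 TPM for shNC 2, 119.57 TPM for shTPX2 1 and 57.03 TPM for shTPX2 2. DUSP1, a phosphatase induced by serum and stress and named here after its values were seen, gave 49.31 and 9.35 TPM for shNC, and 48.25 and 10.68 TPM for shTPX2, in the same order. For both genes the library number and not the group separated high from low values. Within each number shTPX2 exceeded shNC for FOSL1, and with the number as a block in the fit its log2 fold change was 0.99 (adjusted p = 0.431 in edgeR). What the numbers stand for is not stated, and its part in the FOSL1 values was not tested further.

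The remaining genes of the pathway were examined with 5 lists written from general knowledge. The counts in each list stand beside 6.24% of all genes tested that were higher by the study's criteria and 7.99% that were lower. Among the other ETV and AP-1 factors, FOSB was higher by the study's criteria and FOSL2 and ETV1 were lower, out of 7 tested. FOSB, an AP-1 partner like FOSL1, gave 12.92 and 6.07 TPM for shNC, and 18.14 and 16.79 TPM for shTPX2. The fitted difference was 1.0 on the log2 scale, with a standard error of 0.36 and an adjusted p of 0.597 in edgeR. FOSL2, which encodes FRA-2, the closest relative of FRA-1, gave 44.75 and 49.63 TPM for shNC, and 34.2 and 24.66 TPM for shTPX2. Here the difference was −0.52 on the log2 scale, with a standard error of 0.19 and an adjusted p of 0.601 in edgeR. By the same criteria FOSL1 and FOSB were thus higher and FOSL2 lower. ETV1, a further PEA3 factor, was under 1 TPM in every library, and JUND had a log2 fold change of −0.34. The list had a median of −0.21.

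Of the 18 other ERK-induced genes, PHLDA1 alone met the study's criteria. For this gene shNC gave 31.33 and 29.86 TPM, shTPX2 gave 42.67 and 35.13 TPM, and the difference was 0.47 on the log2 scale with a standard error of 0.18 and an adjusted p of 0.617 in edgeR. MYC, IER5 and HBEGF, the next by p, had log2 fold changes of 0.52, 0.25 and 1.11, with standard errors of 0.30, 0.16 and 0.73. MYC gave 52.43 and 47.71 TPM for shNC, and 84.31 and 46.58 TPM for shTPX2. Its shTPX2 libraries were thus at once the highest and the lowest. HBEGF, which encodes an EGFR ligand, overlapped between groups, at 23.87 and 9.48 TPM for shNC, and 53.86 and 12.05 TPM for shTPX2. CCND1, the cyclin through which ERK signalling drives entry into the cell cycle, gave 412.74 and 244.16 TPM for shNC, and 353.05 and 312.38 TPM for shTPX2, a difference of 0.14 on the log2 scale with a standard error of 0.29. For EGR1 the difference was 0.04 with a standard error of 0.72. This list had a median of 0.06, with 10 genes fitted above 0 and 8 below.

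The other MAPK phosphatases had 1 of 7 genes higher by these criteria, DUSP9, which was at 2.84 TPM or less in every library. DUSP8, DUSP16 and DUSP7 had log2 fold changes of −0.45, −0.23 and 0.24, and the median of the 7 was 0.13. SPRED3, SPRY3 and SPRY1 were fitted at −0.40, −0.21 and −0.12 and 0 of these 3 met the criteria. In the cascade from the receptor to ERK, 0 of 24 genes were higher and 2 were lower by the study's criteria, RASA1, which switches off RAS, with a log2 fold change of −0.52, and the adaptor SHC1, with −0.41. SOS1, an activator of RAS, had a log2 fold change of −0.36, and the median of the 24 was −0.12. In TPM 12 of the 24 were lower without overlap and 3 higher, beside 30.3% and 10.7% of all genes. In edgeR's fit of scaled counts 15 of the 24 lay below 0 and 9 above. EGFR measured 168.7 and 143.94 TPM in shNC, 169.13 TPM in shTPX2 1 and 78.42 TPM in shTPX2 2, while its difference was −0.20 on the log2 scale with a standard error of 0.38. The library with the lowest EGFR, shTPX2 2, had the highest DUSP5 and DUSP6 but also the lowest ETV5, SPRY2 and SPRED1. DUSP4, ETV4, FOSL1, SPRED2 and SPRY4 were neither highest nor lowest in that library. A relation of these genes to EGFR was not tested. Of the 59 genes in these 5 lists, 0 had an adjusted p under 0.05 in edgeR, limma after voom or DESeq2. At an unadjusted p under 0.05 in edgeR 2 of the 59 were higher and 2 lower, beside 3.13% and 4.9% of all genes. Over all 5 lists, 3 of the 59 genes were higher and 4 lower by the study's criteria, beside 6.24% and 7.99% of all genes. These counts are close to the shares of all genes.

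**Figure D4:**
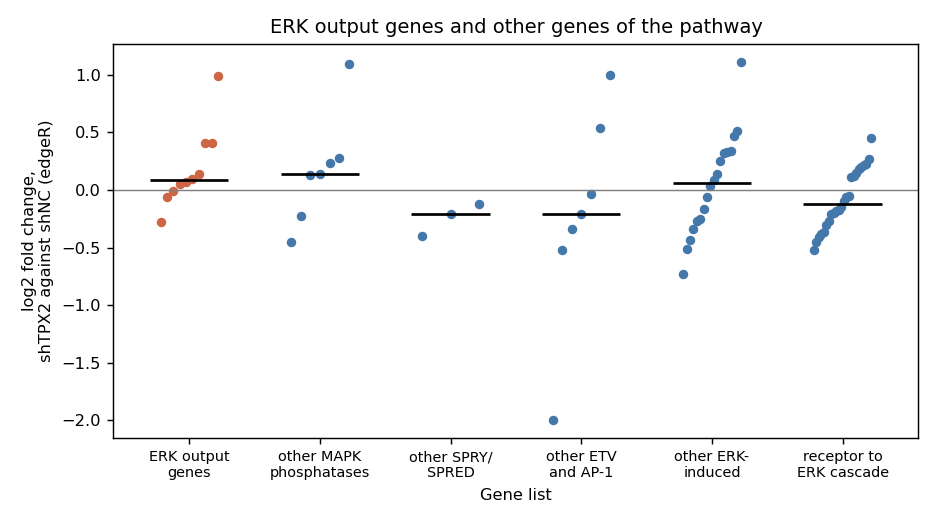
Log2 fold change of shTPX2 against shNC for the 10 ERK output genes (orange) and for 5 lists of other pathway genes (blue), each point a gene and each black line the median of its list. The medians lie between −0.21 and 0.13, and FOSL1 is the highest orange point at 0.99.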

How the data were processed

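PC9 RNA was sequenced as 2 shNC and 2 shTPX2 libraries. The study's methods name SOAPnuke, HISAT2/Bowtie2 and RSEM or StringTie, whereas the submitters' processing notes list HISAT2, featureCounts and DESeq2 with the build GRCh38. The deposited expected counts, not whole for 42.2% to 44.6% of genes in a library, were not scaled for depth. The authors also deposited TPM, scaled per length and to a common total, and FPKM, scaled per length and per library reads, which was not used. Deposited mean columns entered no test.

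Expected counts were rounded to 0 decimals and filtered with filterByExpr, and 14048 genes were fitted with edgeR 4.0.16 (quasi-likelihood test, TMM factors of 0.959 to 1.05, Benjamini-Hochberg adjustment over all genes tested) in R 4.3.3. The study's criteria were applied with limma 3.58.1 after voom. DESeq2 1.42.0, limma on log2(TPM + 1), other factors and filters, a replicate block and leaving out each library (the lone library of a group then being assumed to vary like the other group) were alternatives. Overlap between groups was read from TPM. The edgeR and voom fits were tested on simulated counts beforehand. CYR61 stands in the table for the symbol CCN1.

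The 10 genes, the lists and the motifs were chosen with earlier results of these data known. Of each list, at most 4 genes with the smallest p were named, plus EGFR, EGR1, PHLDA1 and CCND1, and any other gene is marked. One gene that this rule would name is not reported here.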

Additional observations from a re-analysis of the deposited data

How the results depend on the processing

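All 10 ERK output genes kept an adjusted p of 0.05 or more in edgeR, DESeq2 and limma on TPM under each of the 12 alternatives, so 0 were called throughout. FOSL1, DUSP5 and SPRY2 kept their direction under all 12, FOSL1 between 0.62 and 1.34. The number of genes higher at the study's criteria was 0 with adjusted in place of unadjusted p, 3 with the replicate block (7.72% of all genes), and 1 to 3 with each library left out (3.42% to 10.7% of all genes). The 3 were DUSP5, DUSP6 and FOSL1 in the replicate block and without shTPX2 1, where 4.73% of all genes were higher. At an unadjusted p under 0.05 in edgeR the number was 1 to 2 with each library left out (1.46% to 6.43% of all genes). Without shTPX2 1 (2.31%), DUSP5 and DUSP6 were below that p and FOSL1 no longer was. The numbers 1 and 2 are not stated to pair the libraries, although deviations of same-numbered libraries correlated across genes (Pearson's r = 0.194, over genes, which are not replicates). With the replicate block FOSL1 had a log2 fold change of 0.99 with an adjusted p = 0.431 in edgeR.

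Of 120 repeats of single genes, 16 had the opposite sign, and the cause was not tested beyond the libraries or scaling named. Log2 fold changes were −0.11, −0.046, −0.15 and −0.12 for DUSP4, SPRY4, SPRED2 and ETV4 without shNC 2, with ranges over the libraries left out of −0.11 to 0.35, −0.046 to 0.36, −0.15 to 0.34 and −0.12 to 0.24. They were −0.059, −0.10, 0.088, −0.021 and 0.27 for DUSP4, DUSP6, SPRED1, ETV4 and ETV5 without shTPX2 2, and 0.073 and 0.039 for SPRED1 and ETV5 without shNC 1. Ranges were −0.10 to 0.80 for DUSP6, −0.22 to 0.088 for SPRED1 and −0.34 to 0.27 for ETV5. On log2(TPM + 1) DUSP4, SPRED2 and ETV4 had −0.019, −0.027 and −0.054, with library size only ETV4 had −0.017, and with no filter ETV5 had 0.0045.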

Other observations

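The deposited table also holds a mean TPM per group, and for these genes it is not the mean of the listed libraries. The authors' mean for FOSL1 was 199.65 TPM for shNC and 261.38 TPM for shTPX2, although the 4 libraries lay between 24.45 and 65.81 TPM. The authors' shNC mean lay outside the 2 shNC libraries for 8 of the 10 ERK output genes, below both for 7 of them, and the shTPX2 mean for 10 of 10, below both for 9. DUSP4, for example, had 89.58 and 69.78 TPM as the authors' means, whereas its lowest library was at 106.48 TPM. TPX2 had 138.46 and 64.49 TPM. Among all genes deposited, 57.9% had an shNC mean and 71.8% an shTPX2 mean outside their libraries. Multiplied by 3, the shNC means came out as whole hundredths (within 0.001 of a hundredth) for 99.989% of the genes, and multiplied by 4, the shTPX2 means did so for 100% of them. Which values entered these means is not given in the sources used here, and no test was made on them.

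The ratio of the authors' means, shTPX2 over shNC, was 1.31 for FOSL1, 0.779 for DUSP4, 0.791 for ETV4, 0.826 for SPRY4, 0.974 for DUSP6 and 0.698 for SPRY2. The same ratio from the listed libraries was 1.81, 0.984, 0.96, 1.01, 1.22 and 0.754. FOSL1 was above 1 and SPRY2 below 1 in both, while DUSP6 and SPRY4 were on opposite sides.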
